A study of Mus musculus with 4 samples.

Results

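The 10 genes described here are the period genes Per1, Per2 and Per3, the cryptochromes Cry1 and Cry2, Clock, the REV-ERB receptors Nr1d1 and Nr1d2, and the transcription factors Dbp and Tef. They were taken as every array feature listed under exactly one of these symbols, which gave 21 of the 45220 features and 10 of the 18923 genes tested. RNA of the globus pallidus, a nucleus of the basal ganglia that receives inhibitory input from the striatum, was compared on 4 Agilent whole-genome mouse arrays with 2 colours, each carrying 1 cocaine mouse and 1 saline mouse. All 8 mice were C57BL6 males put through conditioned place preference, which scores how far an animal seeks out the compartment paired with a drug. The 4 cocaine mice received 15 mg/kg on days 2, 3 and 4 of the protocol and had a high preference score, and the 4 saline mice received saline on the same days. Cocaine RNA carried Cy5 in pairs 1 and 3 and Cy3 in pairs 2 and 4. The sources used here give neither the age of the mice nor the light cycle or time of day of dissection.

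The clock is a feedback loop of transcription. CLOCK pairs with BMAL1, the product of Arntl, and the dimer binds E-box sequences to switch on the period, cryptochrome, REV-ERB and Dbp genes. PER and CRY proteins then return to the nucleus and inhibit the dimer, the REV-ERB receptors repress Arntl, and the PAR bZIP factors DBP and TEF act through D-box sequences. Outside the suprachiasmatic nucleus, the master pacemaker of the hypothalamus, these genes also cycle in striatal and other basal ganglia tissue, and mice with mutated Per1 or Per2 differ from controls in their response to cocaine.

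Promoter windows of 300 bases were available in RefSeq (build GRCm38.p6) for 9 of the 10 genes, 13 windows in all. The windows were searched for elements through which clock proteins are known to act on clock genes. Searched on both strands, the E-box CACGTG stood in 4 windows of 3 genes (Per1, Cry1 and Tef) and in 7.15% of all 32851 promoter windows, and its variant CACGTT in windows of Cry1, Cry2 and Nr1d1 and in 4.68% of all. The D-box TTATGTAA, the element bound by DBP and TEF, occurred only in the Per3 window among these genes, at 205 and 158 bases before the start, and in 0.938% of all windows. The ROR element TAGGTCA was in 0 of the 13 windows and in 2.61% of all; a missing match says only that these letters are not in the window. One window is given for each gene with a CACGTG or D-box match, 5′ to 3′ on the strand of the gene, with the letters of any motif searched in capitals: Per1 lies on the plus strand at chr11:69098699-69098998, Cry1 on the minus strand at chr10:85185005-85185304, Per3 on the minus strand at chr4:151044616-151044915 and Tef on the plus strand at chr15:81802423-81802722.
Per1: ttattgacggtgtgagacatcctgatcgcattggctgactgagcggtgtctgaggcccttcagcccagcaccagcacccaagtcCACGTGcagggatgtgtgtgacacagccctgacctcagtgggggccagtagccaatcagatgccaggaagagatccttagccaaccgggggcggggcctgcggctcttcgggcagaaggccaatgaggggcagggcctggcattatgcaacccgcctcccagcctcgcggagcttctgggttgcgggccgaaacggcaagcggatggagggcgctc
Cry1: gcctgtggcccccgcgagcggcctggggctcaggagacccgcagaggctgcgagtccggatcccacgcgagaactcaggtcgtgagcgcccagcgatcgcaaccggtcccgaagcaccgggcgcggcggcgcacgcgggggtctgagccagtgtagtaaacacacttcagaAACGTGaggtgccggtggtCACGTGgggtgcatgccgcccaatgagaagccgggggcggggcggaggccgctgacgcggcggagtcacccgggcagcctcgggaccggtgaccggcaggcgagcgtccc
Per3: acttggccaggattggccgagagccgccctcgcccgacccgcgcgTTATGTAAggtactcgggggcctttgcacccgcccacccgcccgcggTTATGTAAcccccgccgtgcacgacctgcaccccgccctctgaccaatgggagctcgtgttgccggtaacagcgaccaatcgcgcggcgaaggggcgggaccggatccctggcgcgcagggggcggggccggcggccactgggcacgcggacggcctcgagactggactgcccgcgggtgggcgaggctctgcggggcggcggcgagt
Tef: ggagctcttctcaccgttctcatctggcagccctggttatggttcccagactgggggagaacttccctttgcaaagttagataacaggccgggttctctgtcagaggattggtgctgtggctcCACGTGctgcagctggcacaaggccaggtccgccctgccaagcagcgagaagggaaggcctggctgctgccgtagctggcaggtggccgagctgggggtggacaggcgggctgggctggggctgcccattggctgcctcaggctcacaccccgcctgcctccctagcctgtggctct

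No clock gene differed between cocaine and saline mice past the threshold. Dbp had the lowest value, -0.19 ± 0.10 as log2 change with limma's moderated SE (n = 4 pairs, dye term fitted), followed by Per2 at -0.12 ± 0.056 and Nr1d1 at -0.12 ± 0.057. Cry1 had the highest value, 0.13 ± 0.077. Of the 10 genes, 6 lay below 0 and 4 above 0, with a median of -0.079, beside 53.6% of all genes below 0, 46.4% above 0 and a median of -0.0064 over all genes. In the limma fit over all genes with Benjamini-Hochberg adjustment, 0 of the 10 passed an adjusted p under 0.05 (smallest 0.967), as did 0 of all genes (0%). At an unadjusted p under 0.05 there were again 0 of the 10, against 2.64% of all genes. Their 95% intervals from this fit all contained 0 and together spanned -0.44 to 0.38 on the log2 scale, or 0.739-fold to 1.30-fold.

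Changes are given as cocaine over saline, which is the likely direction because the design sets the cocaine mice first. The sign of the columns follows the treatment and not the dye, since the deposited columns correlated positively for pairs with the same dyes (0.892 and 0.889) and negatively for pairs with exchanged dyes (-0.847 to -0.947). If the numerator is saline, every sign of a change, a normalized ratio or a dye effect in this text is turned. That includes the signs in the paragraph above. Dbp would then be the highest and Cry1 the lowest of the 10, and the 6 genes below 0 would lie above it. The medians of the deposited columns were 0.42, -0.58, 0.41 and -0.43, so the ratios were normalized here, and a dye effect was still called for 9.58% of all genes after normalization (limma, adjusted p under 0.05). In bulk tissue, less RNA per cell and fewer cells of a type cannot be told apart. For the tissue label, 8 of 9 measured pallidal markers had a feature above 891 scanner units, the upper quartile of signal over single features. Among them were Pvalb, Npas1, Lhx6 and Gad1. The same held for 2 of 6 striatal markers (Penk and Rgs9), 4 of 5 astrocyte, 4 of 5 microglia and 3 of 4 oligodendrocyte markers. It held for 2 of 5 endothelial and 0 of 4 choroid plexus markers. Each gene was counted by its brightest feature, so a gene with several features had more chances to pass. The share over all genes was not counted, so these counts describe the tissue label and do not test it. Of 9 markers of suprachiasmatic and other hypothalamic neurons, 0 had such a feature. Among these, Avp, which encodes vasopressin, was above 0 in all 4 pairs, with 0.85, 1.26, 0.32 and 0.22 in pairs 1 to 4 and a fitted change of 0.66 ± 0.18 (limma, unadjusted p = 0.00954, adjusted p = 0.967) at a signal of 192. Its change was 0.40 without pair 2 and 0.95 with background taken off. Oxt, which encodes oxytocin, had a change of 0.20, and the median of the 9 markers was 0.024. The part of tissue from outside the pallidum in the clock gene ratios was not tested.

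**Figure D1:**
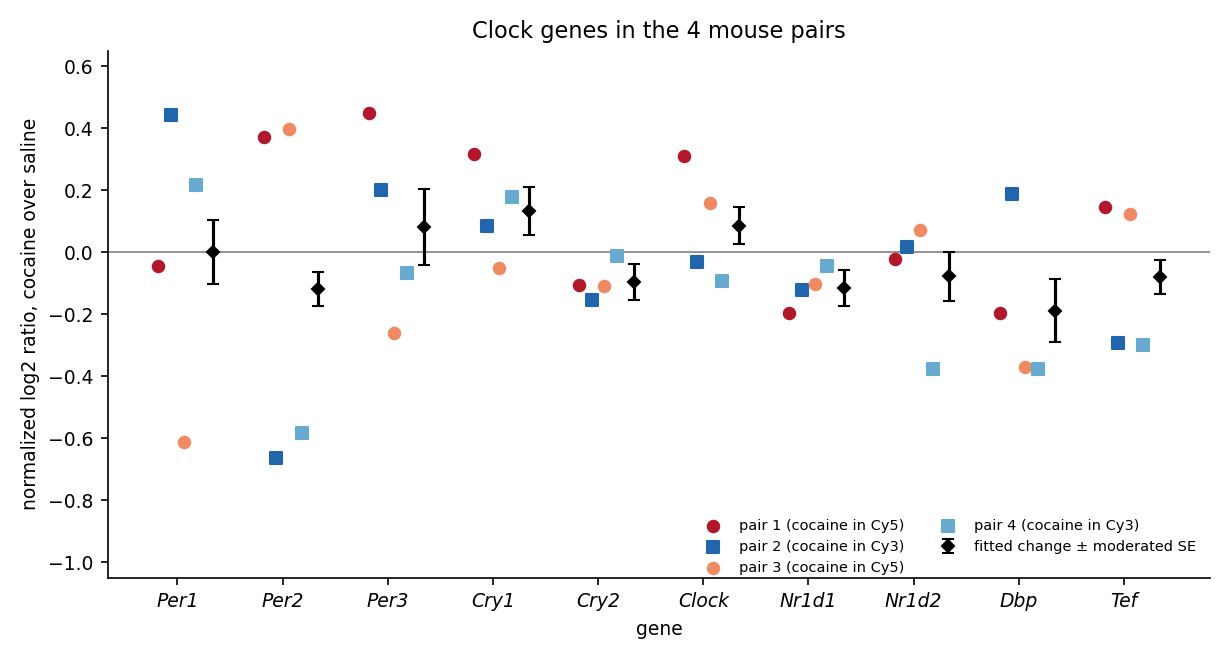
Normalized log2 ratio of cocaine over saline (vertical axis) for each of the 10 clock genes in mouse pairs 1 to 4; circles have cocaine in Cy5, squares cocaine in Cy3, and black diamonds give the fitted change with its moderated SE. As averages of their features, Cry2 and Nr1d1 lie below 0 in all 4 pairs. Per2 splits by dye, from 0.40 in pair 3 to -0.66 in pair 2.

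The period genes encode the inhibitors that define the loop. Per1, which is also switched on acutely by neuronal activity and by glucocorticoids, had normalized log2 ratios of -0.043, 0.44, -0.61 and 0.22 in pairs 1 to 4. It was higher in both cocaine mice labelled with Cy3 and lower in both labelled with Cy5, and the fitted change was 0.0013 ± 0.10 (95% interval -0.25 to 0.25). Per2 had 0.37, -0.66, 0.40 and -0.58, the opposite split. Its dye effect was 0.50 on the log2 scale of Cy5 over Cy3 (limma, adjusted p = 0.0093), and it was the 1 gene of the 10 with a dye effect past the threshold. The fitted change of Per2 cancels that effect between orientations and had the smallest unadjusted p of the 10 (0.0778, adjusted p = 0.967 in limma). Per3 had 0.45, 0.20, -0.26 and -0.066, with a fitted change of 0.081 ± 0.12, and its sign was 2 pairs against 2.

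The Per2 value came from 1 of its 2 features. The feature with a recovered signal of 237 scanner units had a change of 0.011 ± 0.069. The other feature, at a signal of 111, had -0.25 ± 0.082 (unadjusted p = 0.0257, adjusted p = 0.971 in limma over features). At that signal it ranked above only 3.59% of listed features, near the array background. It was the only clock feature of the 21 at an unadjusted p under 0.05, against 2.09% of the 33256 features tested. With features under 139 scanner units left out, Per2 stood at 0.011.

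The cryptochromes are the repressors that keep CLOCK and BMAL1 inactive, and their values had opposite signs here; the difference between the 2 genes was not tested. Cry1 had 0.32, 0.084, -0.050 and 0.18 in pairs 1 to 4 and was above 0 in 3 of them, with a change of 0.040 without pair 1 and 0.22 without pair 3. Its 2 features both had positive changes, 0.098 ± 0.065 and 0.17 ± 0.11, at signals of 187 and 164, below the median of listed features (218). Cry2 had -0.10, -0.15, -0.11 and -0.013 and was below 0 in all 4 pairs, with a fitted change of -0.095 ± 0.058, which was -0.060 without pair 2 and -0.18 with the ratios as deposited. The 2 features of Cry2 had like fitted changes, -0.097 ± 0.092 and -0.093 ± 0.073, but differed pair by pair. The brighter had 0.065, -0.33, -0.18 and 0.059 in pairs 1 to 4, and the dimmer -0.27, 0.024, -0.039 and -0.085. Neither feature was below 0 in all 4 pairs, so the shared sign of Cry2 belongs to their average. A shared sign in 4 pairs was seen for 2 of the 10 genes, against 6.25% of all genes, and both were below 0, against 3.38% of all genes. None was above 0 in all 4 pairs, against 2.87% of all genes. After normalization, pairs with exchanged dyes still had correlations of -0.38 to -0.69 across genes, which are not independent replicates, so 4 shared signs are rarer than independent signs would give.

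Clock, the DNA-binding partner of BMAL1, had ratios of 0.31, -0.031, 0.16 and -0.094 in pairs 1 to 4, positive where cocaine was labelled with Cy5. The fitted change was 0.086 ± 0.060, and 0.048 without pair 1 and 0.0023 with the ratios as deposited. All 4 of its features were above 0, between 0.065 and 0.11, over signals from 164 to 888. The dimmest of them had a dye effect of 0.52 (limma over features, adjusted p = 0.0133). The brightest feature did not split by dye, with -0.035, 0.19, 0.21 and -0.10 in the 4 pairs.

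Nr1d1 and Nr1d2 encode REV-ERBα and REV-ERBβ, heme-binding receptors that repress Arntl. Nr1d1 had -0.20, -0.12, -0.10 and -0.045 in pairs 1 to 4, the narrowest spread of the 10 genes after Cry2, and was below 0 in all 4. Its 3 features had changes of -0.17 ± 0.073, -0.14 ± 0.064 and -0.029 ± 0.073, from the brightest to the dimmest, and the fitted change of the gene was -0.12 ± 0.057 (unadjusted p = 0.0896) and -0.20 with the ratios as deposited. Nr1d2, measured by 1 feature at a signal of 1897, had -0.023, 0.017, 0.073 and -0.38. Its fitted change of -0.078 ± 0.080 depended on the pairs and on the normalization. It was 0.021 without pair 4 and -0.18 without pair 2, -0.25 with arrays centred on their median in place of loess (limma, unadjusted p = 0.0383, adjusted p = 0.917) and -0.32 with the ratios as deposited.

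Dbp and Tef are PAR bZIP transcription factors, and Dbp is among the strongest cycling transcripts in most mouse tissues. Dbp had -0.20, 0.19, -0.37 and -0.38 in pairs 1 to 4, below 0 in 3 of them. Its single feature was very bright, with a recovered signal of 29939 scanner units. Saturation was not tested. The value depended on single pairs and on the normalization: the change was -0.33 without pair 2 and -0.047 without pair 4, and it was -0.42 with arrays centred on their median in place of loess (limma, unadjusted p = 0.00344, adjusted p = 0.917) and -0.49 with the ratios as deposited. Tef had 0.15, -0.29, 0.12 and -0.30, split by dye like Per2, with a fitted change of -0.081 ± 0.055. Of its 4 features the brightest, at a signal of 2948, had -0.11, -0.096, -0.20 and 0.0074 in the 4 pairs and showed no such split, while the dimmest, at 129, ran from 0.69 in pair 1 to -1.09 in pair 2.

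**Figure D2:**
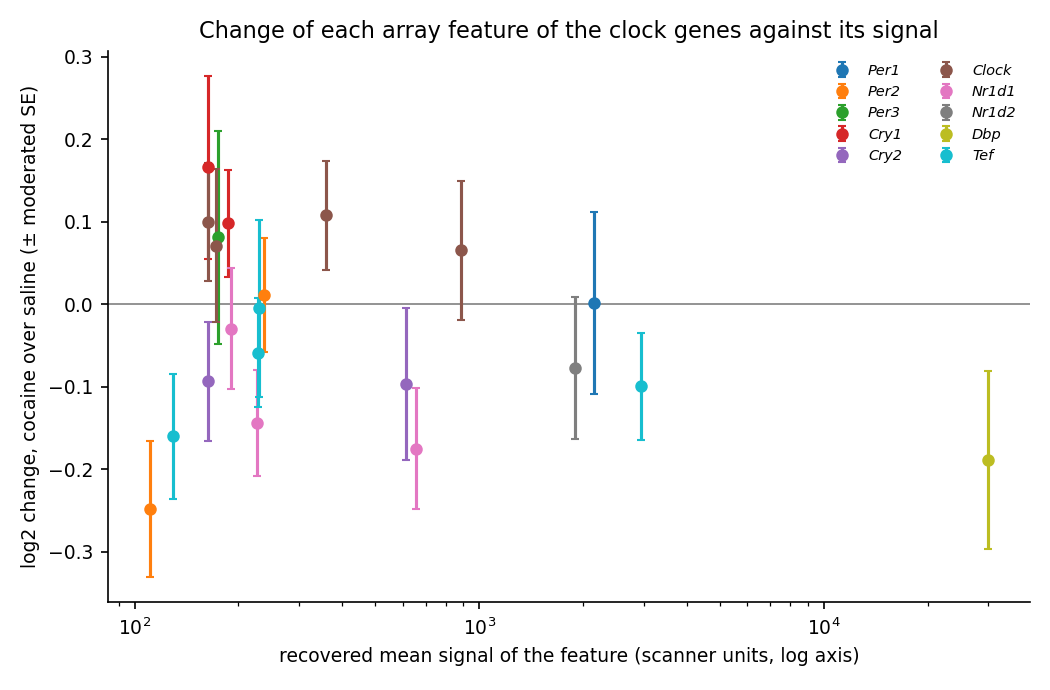
Fitted log2 change of cocaine over saline (vertical axis, bars are moderated SEs) for the 21 features of the clock genes against their recovered mean signal in scanner units (log axis). The lowest value, -0.25, belongs to the dimmest feature, one of Per2 at a signal of 111, and 9 of the 21 features lie below the median signal of listed features, 218.

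The 21 features differed widely in signal, and the effect of signal on their spread was not tested. Of the 21, 9 had a signal below the median of all listed features (218 scanner units), and 2 lay below 139, the limit for dim features. Those 2 belong to Per2 and Tef, while Per3 and Cry1 were measured by features with recovered signals between that limit and the median alone. The Cry1 feature at 164 could be brighter, since its signal is the smallest that the ratio of array 1 allowed. Background remains in the ratios. To take it off, both channels of each array were rebuilt from its ratio and the mean signal recovered from arrays 1 and 3. The signals of arrays 2 and 4 themselves were not recovered. With background taken off, Cry1 stood at 0.20, Per3 and Clock at 0.12, Nr1d1 at -0.14 and Cry2 at -0.13, farther from 0 than before. Per2 stood at -0.11 and Tef at -0.087, close to their values without that step. None of the 10 genes passed. Per1, Nr1d2 and Dbp had bright signals, from 1897 to 29939, and a single feature each. A dye effect past an adjusted p of 0.05 was found in 4 features, 2 of Per2 and 1 each of Clock and Tef, all at signals of 237 or less. The same was found in 10.2% of all features tested and in 16% of those at signals up to 237. That limit was taken from the brightest of these 4 features, so the 16% is a description only.

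The other genes of the clock were counted from a list of 24, of which 22 were measured. Of these, 11 were above 0 and 11 below 0, with a median of 0.00078, and 0 passed (limma, smallest adjusted p 0.967; 0 at an unadjusted p under 0.05). Arntl, which encodes BMAL1, had 0.31, -0.18, 0.21 and 0.16 in pairs 1 to 4 and a fitted change of 0.12 ± 0.075, which was 0.038 without pair 4, 0.21 without pair 2 and 0.040 with the ratios as deposited. The smallest unadjusted p of the list belonged to Gsk3b, a kinase that phosphorylates clock proteins, at 0.18 ± 0.091 (unadjusted p = 0.098). It was 0.061 with median centring and -0.0076 with the ratios as deposited, and ran from 0.076 without pair 2 to 0.28 without pair 4. Rorb, a receptor that opposes the REV-ERBs at ROR elements, had 0.10 ± 0.058, and 0.31 from its brightest feature alone. It split by dye, with 0.55, -0.27, 0.53 and -0.41 in pairs 1 to 4 and a dye effect of 0.44 (limma, adjusted p = 0.0124). A dye effect passed an adjusted p of 0.05 in 3 of the 22 genes, against 9.58% of all genes (limma). Fbxw11, an F-box protein of the ligase that targets PER proteins, had 0.089 ± 0.073, and -0.056 with the ratios as deposited. Npas2, which can replace CLOCK, had 0.052 ± 0.078, with 0.36 in pair 1 and -0.064 in pair 2. Without pair 1 the change of Npas2 was -0.046. Ciart, a repressor of CLOCK and BMAL1 also known as CHRONO, had the lowest value of the list, -0.17 ± 0.14. Its change was 0.027 without pair 4 and -0.37 without pair 2, and -0.29 with median centring. The kinases of PER proteins, Csnk1d and Csnk1e, stood at -0.078 ± 0.069 and 0.063 ± 0.066, and with median centring at -0.16 and -0.023. The ROR genes were otherwise represented by Rora at 0.0064 ± 0.080, which was -0.065 with median centring.

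**Figure D3:**
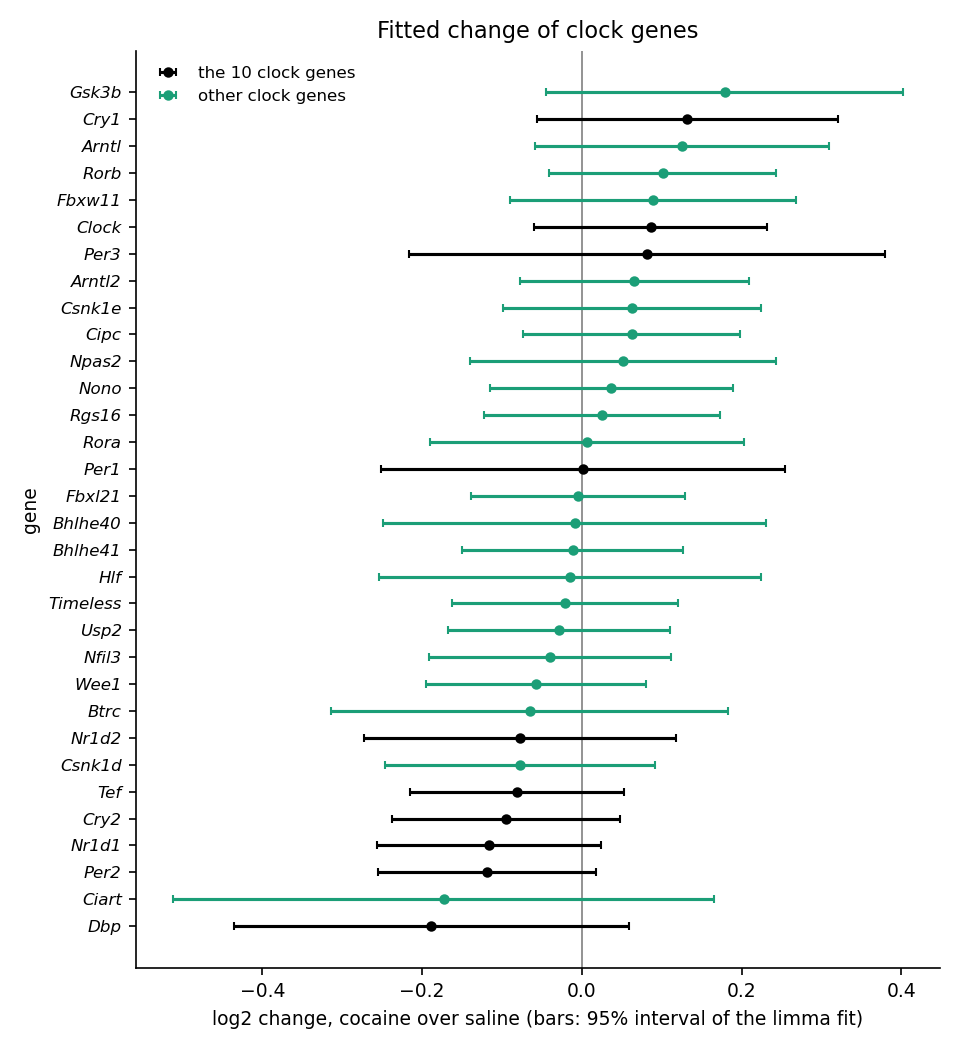
Fitted log2 change of cocaine over saline (horizontal axis) with its 95% interval from the limma fit, for the 10 clock genes (black) and 22 other clock genes (green), ordered by value. Every interval contains 0, and values run from -0.19 for Dbp to 0.18 for Gsk3b.

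In tissues with a running clock, Arntl and Npas2 transcripts peak away from those of Per1, Per2, Per3, Nr1d1, Nr1d2, Dbp and Tef, and Clock, their activator partner gene, cycles less. The mean of the 7 latter genes was 0.073, -0.032, -0.11 and -0.22 in pairs 1 to 4, and the mean of the 3 activators 0.33, -0.093, 0.11 and 0.0030. The 7 genes minus the activators gave -0.25, 0.061, -0.22 and -0.22 in pairs 1 to 4, so that pair 2 differed in sign from the other pairs. The difference of the fitted changes was -0.16, and it ran from -0.23 without pair 2 to -0.088 without pair 4; with median centring it was -0.24. It is given with no test, since the genes were chosen with results of these data known.

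Pairs that share a dye orientation can be set against each other, which removes a dye effect that is the same on both arrays. Per1 was higher in pair 1 than in pair 3 by 0.57 and higher in pair 2 than in pair 4 by 0.23, Per3 by 0.71 and 0.27, and Dbp by 0.17 and 0.57. Both differences were above 0 in 5 of the 10 genes (Per1, Per3, Clock, Dbp and Tef, the last by 0.024 and 0.0070 only), against 20.8% of all genes. Taken singly, pair 1 lay above pair 3 in 7 of the 10 genes (45.5% of all genes) and pair 2 above pair 4 in 6 (43.6%). These are differences between mouse pairs and carry no treatment contrast. Each pair was measured on its own array, so pair and array cannot be told apart.

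Of 3 glucocorticoid-responsive genes set beside Per1, 1 had the same order of the 4 pairs. Fkbp5, which encodes a co-chaperone of the glucocorticoid receptor and is induced by it, had ratios of 0.10, 0.59, -0.52 and 0.21 in pairs 1 to 4. Sgk1, a kinase induced by glucocorticoids, had 0.083, 0.19, -0.23 and 0.042. Per1 and Fkbp5 were highest in pair 2, next in pair 4, then in pair 1 and lowest in pair 3. Sgk1 differed from that order in having pair 1 above pair 4. In that order both pairs with cocaine in Cy3 lie above both with cocaine in Cy5. The dye effects, as log2 of Cy5 over Cy3, were -0.33 for Per1 (limma, adjusted p = 0.112) and -0.31 for Fkbp5 (limma, adjusted p = 0.172). The share of all genes with that order was not counted. Tsc22d3, a further glucocorticoid target, had 0.45, -0.15, -0.15 and 0.017 and did not follow that order. Among activity-induced genes, Fos, Egr1, Nr4a1 and Dusp1 had fitted changes of 0.057 ± 0.073, 0.062 ± 0.18, 0.15 ± 0.088 and 0.16 ± 0.064, and 0 passed (limma). In pairs 1 to 4, Fos had 0.22, -0.23, 0.55 and -0.31, Egr1 0.21, 0.57, 0.070 and -0.60, and Nr4a1 0.22, 0.31, 0.24 and -0.17. Dusp1 had 0.29, 0.18, 0.093 and 0.063, above 0 in all 4 pairs, against 2.87% of all genes. Its unadjusted p was 0.0493 (limma, adjusted p = 0.967), and 2.64% of all genes had an unadjusted p under 0.05. The part of stress hormone or activity in the Per1 ratios was not tested, nor set apart from the dye.

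**Figure D4:**
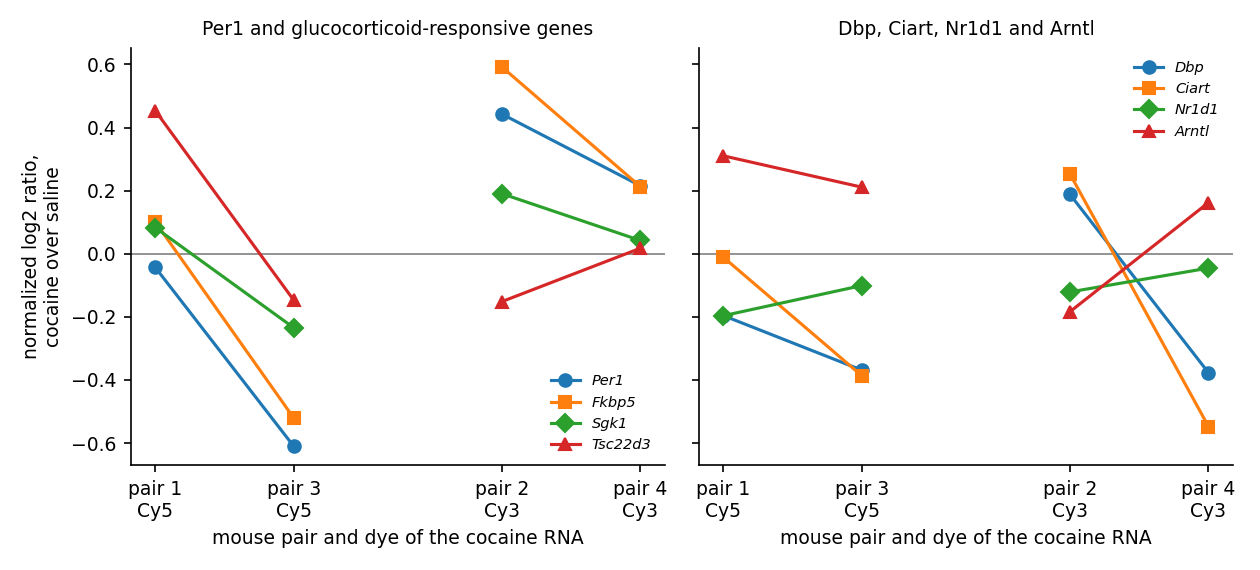
Normalized log2 ratio of cocaine over saline (vertical axis) by mouse pair, with lines joining the 2 pairs of one dye orientation; left, Per1, Fkbp5, Sgk1 and Tsc22d3, and right, Dbp, Ciart, Nr1d1 and Arntl. Per1 and Fkbp5 drop from 0.44 and 0.59 in pair 2 to -0.61 and -0.52 in pair 3, pairs with exchanged dyes. Dbp and Ciart are both positive in pair 2 alone.

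By Euclidean distance over the 4 normalized ratios, the genes most like Dbp were Wdr27 (distance 0.174), Mfsd2a (0.190) and Vmn1r193 (0.195), among 17530 named symbols compared. Mfsd2a, a lipid transporter of brain endothelium, had -0.20, 0.096, -0.26 and -0.25 in pairs 1 to 4. Ciart was the nearest clock gene, ranked 14 at a distance of 0.260, with -0.011, 0.25, -0.39 and -0.55. Both Dbp and Ciart were thus positive in pair 2 alone. The genes most like Per2 were Meig1 (0.0703), Ptgr1 (0.0841) and AW554918 (0.0939), all of them split by dye as Per2 was, and the nearest clock gene, Timeless, ranked 575. With 4 pairs such likeness is a description of these arrays.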

How the data were processed

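The deposited table holds a log2 ratio for each of 45220 features on each array, with 0 missing values. Agilent Feature Extraction is named in the submitters' processing notes, and the sources used here give neither its version nor its settings for background and normalization. On arrays 1 and 3, raising 2 to the deposited value gave a fraction of whole numbers (within a relative error of 1e-12) in 98.4% and 98.3% of cases (1.82% and 1.74% with base 10), so the deposited values were read as log2 ratios of unnormalized scanner signals. Mean signals recovered from those fractions for 44407 features (98.2%) served as the loess axis on all 4 arrays. Arrays 1 and 3 were solved jointly for 42851 features, above a fixed lower limit of signal. The rest took the smallest multiple above that limit from 1 array, among them the Cry1 feature at 164. Of 5000 simulated features, 97.1% were resolved and 90.8% of those lay within 0.25 log2. Their signals were drawn around the recovered ones with a like lower limit and without the 1-array rule. The simulation therefore tests neither that limit nor that rule. Loess used span 0.3 and 4 iterations on features listed with a gene. The platform annotation gave 1 symbol to 33653 features, several to 56 and none to 11511; 397 features with 1 symbol had no recovered signal and were left out. All 21 clock features matched the same symbol by Entrez ID in RefSeq (GRCm38.p6, names only).

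Features of a gene were averaged and 18923 genes fitted with limma 3.58.1 in R 4.3.3 on ratios of Cy5 to Cy3; the design held the dye as intercept and the treatment coded 1 or -1 by orientation (2 residual degrees of freedom, prior 4.02; two-sided, Benjamini-Hochberg). The 95% intervals use the moderated SE and the sum of both degrees of freedom. The code was tested on simulated data. Arrays 1 to 4 are pairs of different mice, named in accession order; their number limits the precision. Scanner files were not used here. The genes, lists and named-gene rule were chosen with earlier results of these data known: all 10 genes, the 4 other clock genes with the smallest unadjusted p and partners of the 10 by role, and the 3 genes nearest to Dbp and to Per2. Alternatives were median centring, unnormalized ratios, loess span 0.7, no dye term, scaled arrays, the brightest feature per gene, dim features left out, local medians subtracted, each pair left out, single features and, chosen after seeing the data, background subtraction (5th percentile of each channel, 50 added) and all but the single features for Avp and the other clock genes named.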

Additional observations from a re-analysis of the deposited data

Results flagged for a closer look

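Among 39 series of 4 pair values checked (clock genes and the genes set beside Per1), 2 held 1 value standing apart from the remaining 3. About 1 in 20 would do so by chance among independent values, and the pair values here are not independent of the dye. Npas2 stood at 0.36 in pair 1 (normalized log2 ratio), and its remaining pairs lay between -0.064 and -0.031. Nono, a nuclear RNA-binding protein that binds PER proteins, had 0.19 in pair 3 and between -0.022 and -0.0070 elsewhere. None of the 10 clock genes had such a value.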

How the results depend on the processing

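Of 147 recomputed changes of the 10 genes, 135 kept their sign, 12 reversed and 0 passed the threshold (limma, smallest adjusted p 0.474); the cause of the reversals was not tested. Per1, at 0.0013, was -0.17 with median centring, -0.24 with the ratios as deposited, -0.011 with loess span 0.7, -0.048 with arrays scaled to the same spread and -0.00079 with background subtracted, and ran from -0.14 to 0.14 without a pair. Per2 was 0.011 with the brightest feature, with dim features left out and from its brighter feature alone, since its dim feature is then not used. Per3 ran from -0.096 to 0.26 and Nr1d2 from -0.18 to 0.021 without a pair. Cry1, Cry2, Clock, Nr1d1, Dbp and Tef kept their sign under each alternative run. Not every run could move a change, so the counts of kept and reversed signs are not counts of independent checks. Leaving out the dye term cannot move a change in this balanced design. The brightest feature is the main value for genes with a single feature, and leaving out dim features moved only Per2 and Tef. The reversals of Per2 are the same value counted again.

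The median of the 10 genes, -0.079, was -0.18 with the ratios as deposited, where the median of all genes was -0.082, -0.027 with dim features left out, -0.038 with the brightest feature per gene and -0.094 to -0.013 without a pair (-0.013 without pair 4). Genes below 0 numbered 5 to 8 of the 10. Over all genes, 0 to 14 passed without a pair (3 without pair 2 and 14 without pair 4), and 0 in the other alternatives; genes at an unadjusted p under 0.05, 499 in all, were 74 with the ratios as deposited, 133 with no dye term, 164 with median centring, 168 without pair 1, 1021 without pair 3 and 2561 without pair 4. A fit without a pair has 1 residual degree of freedom, so the lone array of a dye orientation is assumed to vary like the others. The fit on ratios within arrays is itself paired, by the 2 mice of each array, and no further replicate block could be fitted. Signal limits Per2 and Tef, each with 1 feature under the dim limit, and Per3 and Cry1, whose features all had recovered signals below the median.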
